A study of Mus musculus with 8 samples.

Results

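Genes that shape the membrane of the endoplasmic reticulum (ER), or that bind to its surface proteins, were examined in the liver of KK-Ay mice. The 7 genes were Vapb, Vapa, Rtn4, Rtn3, Reep5, Reep6 and Osbp, and all probe sets annotated with 1 of these symbols were taken, which gave 18 probe sets of 45037 tested. The list was built around Vapb and Rtn4, which were chosen by their rise in PD mice on these same arrays, so their values are a description here. The other 5 genes are relatives or partners of these, and the question was whether the rise extended to them.

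Liver RNA of 8 male mice, 14 weeks old, was measured on Affymetrix mouse arrays with 1 array per mouse. The 4 PD mice had been fed AIN-93G diet containing persimmon peel (PP) extract at 1 g/kg for 8 weeks, and the 4 CD mice AIN-93G alone. KK-Ay mice carry the yellow agouti mutation and are an obese model of type 2 diabetes, so both groups were diabetic-prone animals and no lean strain was included. The extract was an ether-soluble fraction of an ethanol extract of dried peel. All mice were fasted for 3 h, and the study chose livers from mice whose plasma ketone bodies lay near the group average, so the mice were not a random draw from the groups. The values are log2 of a model-based expression index, in which a difference of 1 is a doubling.

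The ER is a single membrane that forms flat sheets, which carry ribosomes, and a network of curved tubules. Reticulons (Rtn) and the REEP proteins hold a hairpin in the outer leaflet of the membrane and bend it into tubules, while VAPA and VAPB are anchored in the ER and bind proteins with a short FFAT motif, and so tether the ER to other organelles. OSBP is such a partner, and moves cholesterol from the ER to the Golgi in exchange for a phosphoinositide. Hepatocytes hold a large ER that secretes plasma proteins, assembles lipoproteins and synthesises lipids.

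Of the 18 probe sets, 2 were called as upregulated in PD mice by the rank product, the test of the study, at a false discovery rate (FDR) under 0.1, and 0 were downregulated. They were 1 of the 3 probe sets of Vapb and 1 of the 5 of Rtn4. The same test called 0.218% of all probe sets as upregulated and 0.262% as downregulated, and since the list was built around these calls nothing is read from the excess. The 16 other probe sets differed between the diets by -0.08 to 0.11 on the log2 scale, with a median of 0.02, against a median of -0.00 over all probe sets. The lowest FDR among them was 0.951, against 0.001 for the called probe set of Vapb and 0.0265 for that of Rtn4.

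Vapb encodes VAMP-associated protein B, mutated in an inherited motor neuron disease of humans. Its probe set 1423152_at had log2 values of 9.17, 9.49, 9.55 and 9.19 in PD mice, against 8.64, 8.66, 9.01 and 8.87 in CD mice. All 4 PD mice lay above all 4 CD mice, with 0.16 between the lowest PD and the highest CD mouse, a separation found on 1.06% of all probe sets. PD mice averaged 9.35 ± 0.20 and CD mice 8.80 ± 0.18 (SD, n = 4 each). The difference was 0.55 (SE 0.11, 95% interval 0.32 to 0.79), a 1.47-fold higher level.

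The 2 other probe sets of Vapb were not called. For 1436079_s_at the values were 7.23, 7.22, 7.31 and 7.29 in PD mice and 7.21, 7.26, 7.26 and 7.21 in CD mice. For 1458501_at they were 7.66, 7.68, 7.86 and 7.88 in PD mice and 7.78, 7.85, 7.76 and 7.73 in CD mice. The groups overlapped on both. The differences were 0.03 (95% interval -0.07 to 0.12) and -0.01 (95% interval -0.14 to 0.12). Probe set 1436079_s_at averaged 7.26 in PD and 7.24 in CD mice, just above 7.13, the median of all probe set means. For 1458501_at the averages were 7.77 and 7.78. Probe sets whose names end in _s_at can bind transcripts of more than 1 gene. The levels of different probe sets cannot be set against each other, and the difference between probe sets of a gene was not tested.

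Rtn4, also called Nogo, encodes a reticulon that shapes ER tubules and is best known as an inhibitor of axon growth. On probe set 1421116_a_at, PD mice had log2 values of 9.29, 9.15, 9.18 and 9.37, against 8.86, 8.59, 9.12 and 8.87 in CD mice. The groups did not overlap, but CD mouse 3 was only 0.03 below the lowest PD mouse. The means were 9.25 ± 0.10 in PD mice and 8.86 ± 0.22 in CD mice (SD, n = 4 each), a difference of 0.39 (SE 0.10, 95% interval 0.17 to 0.60) or 1.31-fold.

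The 4 other probe sets of Rtn4 differed by -0.03 to 0.06. Which transcripts of Rtn4 and of Vapb each probe set detects is not known from the sources here. Probe set 1452649_at had values of 12.06, 11.71, 11.83 and 12.01 in PD mice and 11.79, 11.75, 12.00 and 11.86 in CD mice, and the groups overlapped (difference 0.06, 95% interval -0.13 to 0.24). The differences were -0.00 for 1435284_at, -0.03 for 1437224_at and 0.04 for 1439650_at. These last 3 had means below 7.13, the median of all probe set means, as had Vapa 1448349_at. When the probe sets of each gene were averaged, dim ones had the same weight as the others. The difference was then 0.19 for Vapb (rank product FDR = 0.343) and 0.09 for Rtn4, and 0 of the 7 genes were called.

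**Figure D1:**
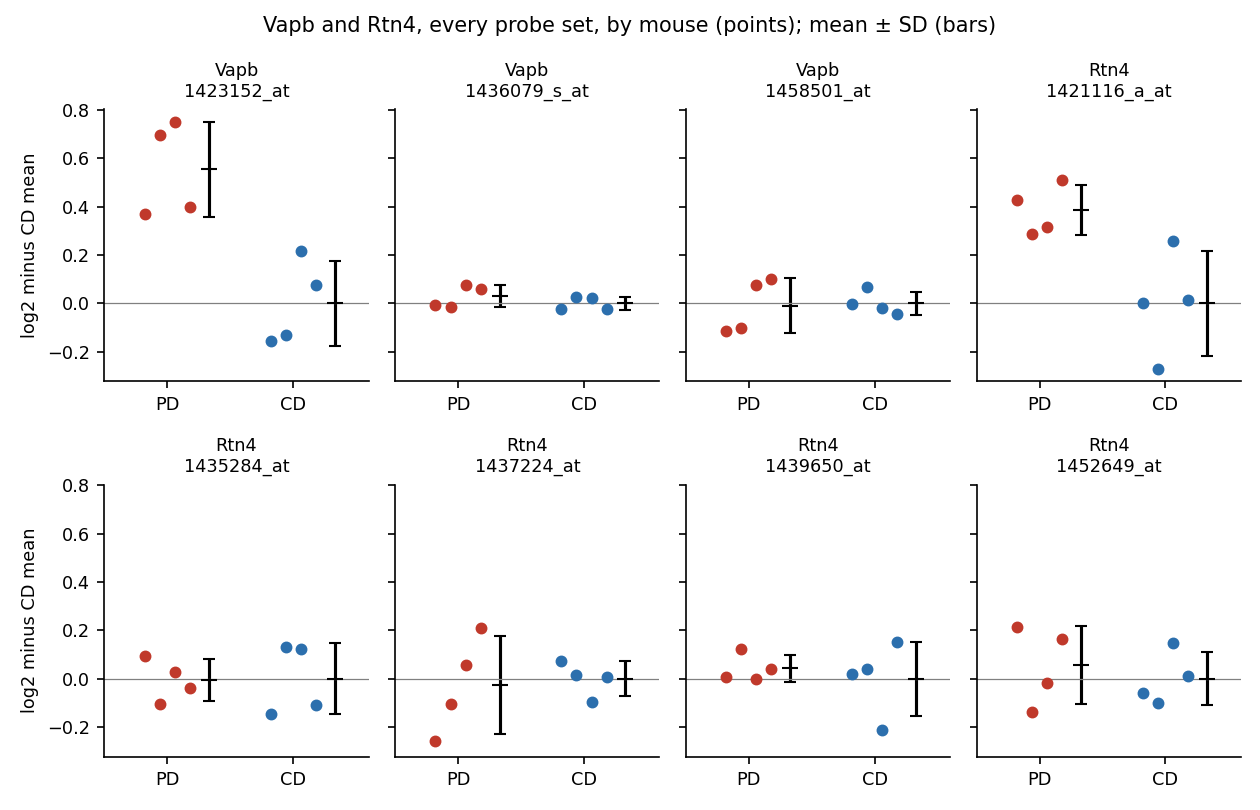
Log2 values of all probe sets of Vapb and Rtn4 minus the mean of the CD mice of that probe set (y axis), for the 4 PD and the 4 CD mice (points), with mean ± SD (bars). The groups separate on Vapb 1423152_at and Rtn4 1421116_a_at and overlap on the 6 other probe sets.

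Since Vapb and Rtn4 were chosen for their rise on these arrays, calls kept on fewer mice are a description and no further support. The call of Vapb was kept without any one of the mice, with differences of 0.49 to 0.63. That of Rtn4 was kept without some of the mice and lost without others. It was lost without PD mouse 1 (difference 0.37, FDR = 0.122), PD mouse 3 (0.41, FDR = 0.128), PD mouse 4 (0.34, FDR = 0.245) or CD mouse 2 (0.30, FDR = 0.163). CD mouse 2 had the lowest Rtn4 value of the 8 mice. Upregulated probe sets in all numbered 91, 40, 27 and 93 in these fits, in that order, against 98 with all mice. They numbered 38 without PD mouse 2, and 89, 190 and 121 without CD mouse 1, 3 or 4, where the call was kept. Whether the losses came from the mouse left out or from the smaller group was not tested. By limma, with p-values adjusted over all probe sets, 0 of the 18 probe sets and 0% of all probe sets passed an adjusted p under 0.1, and the adjusted p was 0.998 for both called probe sets. Without adjustment, limma gave a p under 0.05 for these 2 and for 3.65% of all probe sets.

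**Figure D2:**
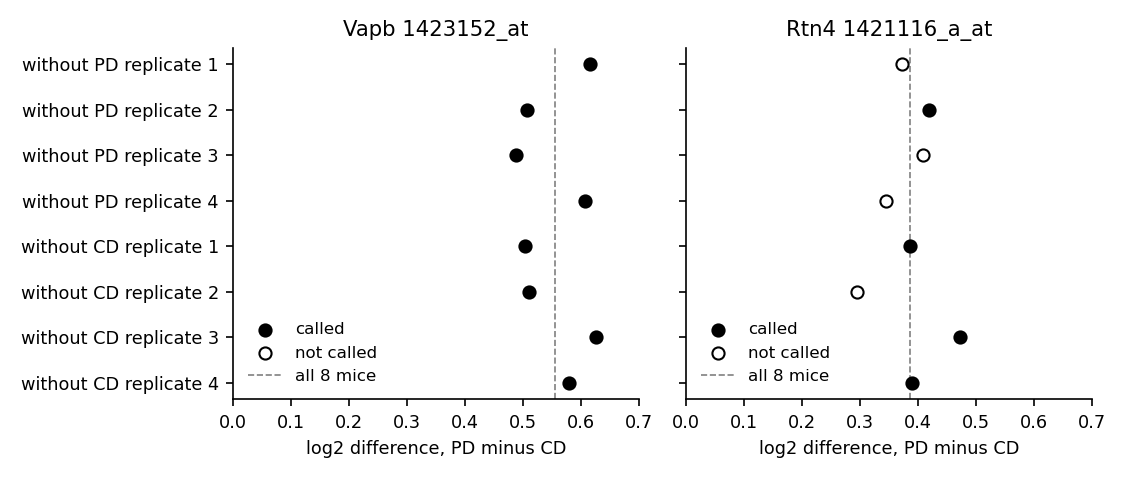
Log2 difference, PD minus CD (x axis), of the called probe sets of Vapb and Rtn4 when the named mouse is left out (y axis). Filled points were called by the rank product and open points were not, and the dashed line is the difference over all 8 mice. Vapb stayed called in all 8 and Rtn4 in 4 of 8, and both were chosen for their rise on these same mice.

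The promoters of both genes and of Vapa, the paralog of Vapb that was not called, are shown to set the starts of the genes side by side. They run from 250 bases before to 50 bases after a start given by RefSeq (GRCm38.p6), which for Vapa lies inside the annotated span of the gene and not at its 5′ end. Capitals mark matches, on either strand, to 4 motifs: the GC box GGGCGG, the CCAAT box CCAAT, the NRF1-type motif GCGCANGCG and the E-box CACGTG. The windows are chr2:173737321-173737620 on the plus strand for Vapb, chr11:29692648-29692947 on the plus strand for the first of 3 annotated starts of Rtn4, and chr17:65613506-65613805 on the minus strand for Vapa.
Vapb: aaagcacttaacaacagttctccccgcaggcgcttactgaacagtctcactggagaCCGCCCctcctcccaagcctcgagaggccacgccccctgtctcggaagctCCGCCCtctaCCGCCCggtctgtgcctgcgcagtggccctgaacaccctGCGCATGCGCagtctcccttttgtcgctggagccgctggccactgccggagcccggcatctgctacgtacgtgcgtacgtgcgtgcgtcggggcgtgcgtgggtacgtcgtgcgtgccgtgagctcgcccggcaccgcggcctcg
Rtn4: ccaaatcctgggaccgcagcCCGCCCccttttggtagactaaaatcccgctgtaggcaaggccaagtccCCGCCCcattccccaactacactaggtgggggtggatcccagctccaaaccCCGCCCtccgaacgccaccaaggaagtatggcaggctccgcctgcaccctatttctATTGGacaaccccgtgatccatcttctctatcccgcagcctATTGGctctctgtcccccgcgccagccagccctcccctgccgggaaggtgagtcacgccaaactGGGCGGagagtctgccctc
Vapa: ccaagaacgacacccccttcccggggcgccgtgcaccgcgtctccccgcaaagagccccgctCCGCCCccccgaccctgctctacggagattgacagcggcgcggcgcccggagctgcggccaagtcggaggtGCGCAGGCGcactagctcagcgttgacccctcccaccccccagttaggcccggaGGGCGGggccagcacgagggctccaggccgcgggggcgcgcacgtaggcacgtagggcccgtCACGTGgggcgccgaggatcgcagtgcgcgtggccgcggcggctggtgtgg

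All 3 windows hold GC boxes, as do 35.7% of 32851 windows of the same length. The Vapb and Vapa windows share the NRF1-type motif, a site of a factor that acts on mitochondrial and housekeeping genes, which 6.25% of windows hold, and the Rtn4 window does not. Rtn4 has CCAAT boxes, found in 37.4% of windows, and Vapa the E-box, found in 7.15%. The table held windows for 5 of the 7 genes (Vapb, Rtn4, Vapa, Rtn3 and Osbp), 7 in all. Of these 7, 6 hold a GC box, 3 the NRF1-type motif (Vapb, Vapa and Rtn3) and 2 a CCAAT box (Rtn4 and Osbp). None of the 7 holds the core TGACGTG of the unfolded protein response element (2.01% of all windows), the ER stress element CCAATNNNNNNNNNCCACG (0.119%) or the sterol response core TCACNCCAC (1.24%). The Rtn4 start furthest downstream, at chr11:29718313-29718612, has 39.7% G and C and holds none of the 7 motifs. The other windows have 62.3 to 75.3% G and C, against a median of 52.7% over all windows. The shares of windows with a motif do not take this into account. Such matches only describe the letters.

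The relatives and partners were not called. Their 10 probe sets differed by -0.08 to 0.11 with a median of 0.03, and 7 were higher and 3 lower in PD mice. None had an unadjusted limma p under 0.05. The standard errors of the 10 were 0.04 to 0.10, and no 95% interval reached above 0.33 or below -0.20. A p that misses the threshold does not show that the levels were equal.

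Vapa encodes the second VAP protein, which binds the same kind of partner as VAPB. Its probe set 1416465_a_at had values of 11.24, 11.27, 11.23 and 11.19 in PD mice and 11.14, 11.17, 11.22 and 11.03 in CD mice. Here 3 of the 4 PD mice lay above all CD mice. The difference was 0.09 (SE 0.05, 95% interval -0.02 to 0.20), and its unadjusted limma p of 0.0863 was the lowest of the 10 (adjusted p = 0.998). For 1416466_at, PD mice lay between 11.42 and 11.44 and CD mice between 11.36 and 11.45 (difference 0.02, 95% interval -0.07 to 0.11). The third, 1448349_at, differed by -0.04.

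Osbp had 1 probe set, 1460350_at. Its values were 9.40, 9.35, 9.46 and 9.36 in PD mice and 9.43, 9.41, 9.61 and 9.42 in CD mice, and the difference was -0.08 (SE 0.06, 95% interval -0.20 to 0.05). CD mouse 3 stood apart from the other CD mice. Without it, the difference was -0.03.

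Rtn3 encodes a second reticulon of the ER tubules, which also acts in the breakdown of tubules by autophagy. Probe set 1418101_a_at ranged from 10.65 to 10.82 in PD mice and from 10.66 to 10.78 in CD mice (difference 0.03, 95% interval -0.08 to 0.15). On 1425539_a_at, PD mice ranged from 9.09 to 9.14 and CD mice from 9.04 to 9.12 (difference 0.05, 95% interval -0.04 to 0.14). The groups overlapped on both.

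Reep5 encodes a hairpin protein of ER tubules. Its probe set 1438001_x_at had values of 9.25, 9.11, 9.16 and 9.17 in PD mice and 9.15, 8.77, 9.34 and 9.002 in CD mice. The CD mice held both the lowest and the highest value, with an SD of 0.24 against 0.06 in PD mice. The difference of 0.11 was the largest of the 10 and had the widest interval (SE 0.10, 95% interval -0.11 to 0.33). It was 0.01 without CD mouse 2 and 0.20 without CD mouse 3. Names ending in _x_at mark probe sets with probes that can bind other transcripts. The other probe sets of Reep5 differed by 0.04 (1419398_a_at) and -0.01 (1426376_at). CD mouse 2 was lowest of the 8 on 1419398_a_at as well, with 7.98, against 8.27 to 8.35 in PD mice and 8.26 to 8.46 in the other CD mice. Without CD mouse 2 the difference of 1419398_a_at was -0.05.

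Reep6 encodes a relative of REEP5, needed for rod photoreceptors in the retina. Its only probe set, 1430128_a_at, had values of 12.56, 12.45, 12.57 and 12.67 in PD mice and 12.54, 12.54, 12.57 and 12.56 in CD mice. The groups overlapped, and the difference was 0.01 (SE 0.05, 95% interval -0.11 to 0.12).

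**Figure D3:**
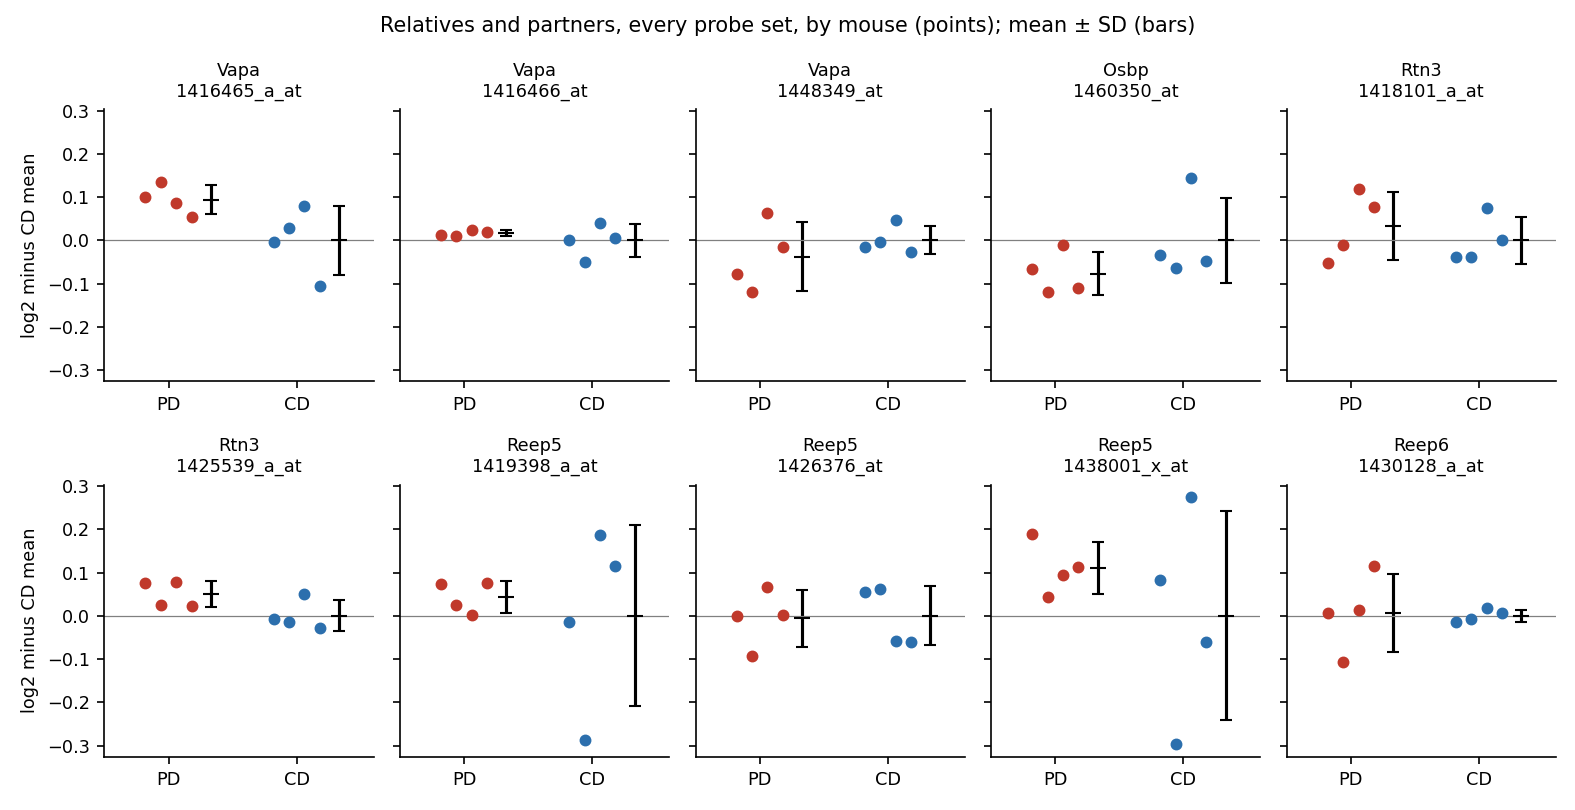
Log2 values of the 10 probe sets of Vapa, Osbp, Rtn3, Reep5 and Reep6 minus the mean of the CD mice of that probe set (y axis), for the 4 PD and the 4 CD mice (points), with mean ± SD (bars). The groups overlap on all 10, and the CD mice of Reep5 1438001_x_at have the widest spread, with an SD of 0.24.

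**Figure D4:**
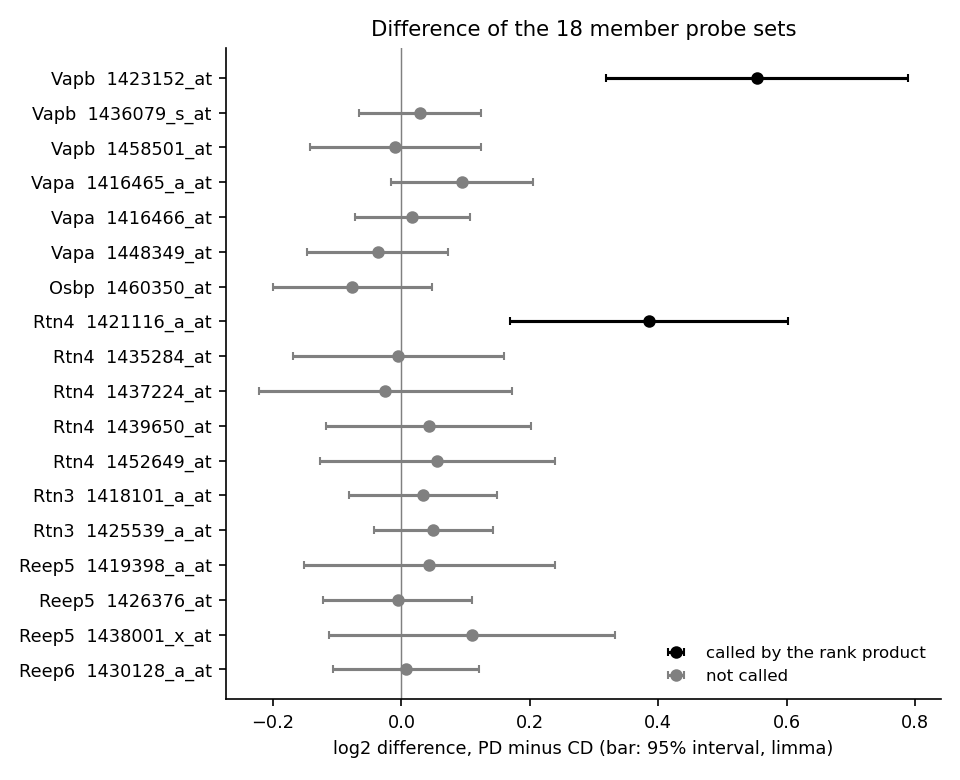
Log2 difference, PD minus CD (x axis), of the 18 probe sets (y axis), with the 95% interval from limma over 4 PD and 4 CD mice (bars). Black points were called by the rank product. The intervals of the 16 grey ones include 0.

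Wider lists around these genes were counted with 1 probe set per gene, that of highest mean over the arrays. Of 24 measured genes of 26 listed for shaping ER tubules and sheets, 13 were higher and 11 lower in PD mice, with a median of 0.02 and a range of -0.12 to 0.12. The list holds atlastins, which fuse tubules, further reticulons and REEPs, and proteins of the sheets. The rank product called 0 of them and limma gave an unadjusted p under 0.05 for 0, against 0.286% upregulated and 0.363% downregulated genes by the rank product and 4.24% by limma among all 18193 genes. The gene with the lowest p was Lnpk, a protein of the junctions between tubules. Lnpk averaged 6.93 ± 0.08 in PD mice and 7.02 ± 0.03 in CD mice (SD, n = 4 each), a difference of -0.09 (SE 0.05, limma, adjusted p = 0.998). These means lay below 7.13, the median of all probe set means, as did those of Rtn1, Rtn2, Reep1 and Reep2.

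Partners of VAPs and other proteins listed with them for membrane contact sites numbered 31 measured of 32 listed. They include the OSBP-related lipid transfer proteins, the ceramide transfer protein Cert1 and the lipid channels of the VPS13 family. Of these 19 were higher and 12 lower in PD mice, with a median of 0.01. The rank product called 0. Rmdn3, a mitochondrial protein that binds VAPB and tethers mitochondria to the ER, was the only one with an unadjusted limma p under 0.05. Of all genes, 4.24% had such a p, so nothing is read from this count. Rmdn3 averaged 10.10 ± 0.04 in PD mice and 9.98 ± 0.07 in CD mice (SD, n = 4 each), with a difference of 0.12 (SE 0.05, limma, adjusted p = 0.998). The groups overlapped, with the lowest PD and the highest CD mouse both near 10.07.

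The third list held genes of the rough ER, which move new proteins into the ER and fold them. Of 21 measured genes of 22 listed, 11 were higher and 10 lower in PD mice, with a median of 0.00, and the rank product called 0. The median of all 18193 genes was -0.01. Calr, a calcium-binding chaperone, was the only 1 of the 21 with an unadjusted limma p under 0.05. Here too 4.24% of all genes had such a p. Calr averaged 11.94 ± 0.05 in PD mice and 12.08 ± 0.07 in CD mice (SD, n = 4 each), a difference of -0.13 (95% interval -0.24 to -0.02, limma, adjusted p = 0.998). The largest difference was that of Hspa5, the ER chaperone BiP, which is named after its values were seen. Hspa5 averaged 12.47 ± 0.13 in PD mice and 12.69 ± 0.23 in CD mice (SD, n = 4 each), a difference of -0.22 with a 95% interval of -0.46 to 0.01.

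**Figure D5:**
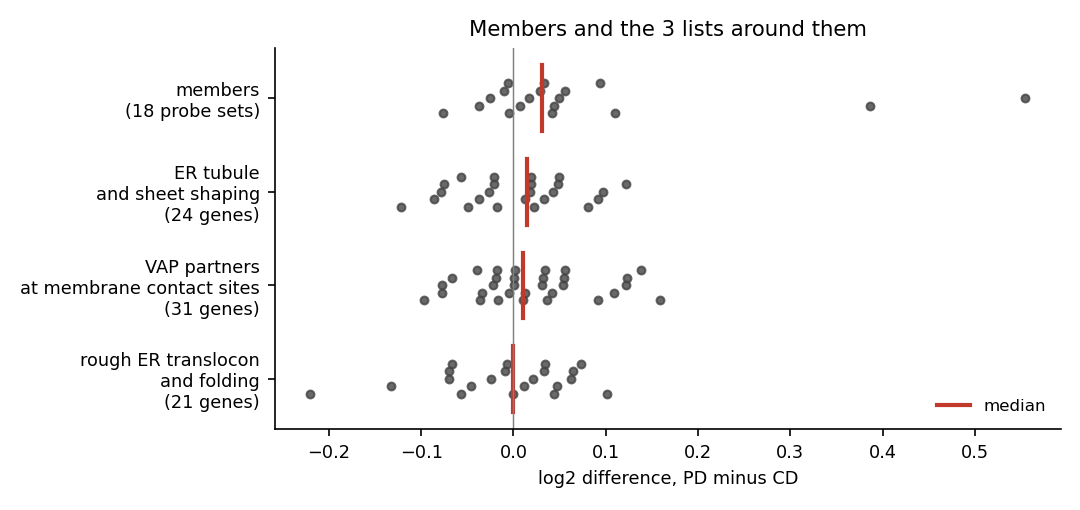
Log2 difference, PD minus CD (x axis), of the 18 probe sets described and of the genes of 3 lists around them (rows), with the median of each (red line). The medians lie at 0.03 for the 18 probe sets and between 0.00 and 0.02 for the lists. The called probe sets of Vapb and Rtn4, genes chosen for their rise, stand alone at the right. The other probe sets of these genes do not.

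Across the 8 mice, the levels of the 7 genes were compared in 20 pairs, with 1 probe set per gene (for Vapb 1423152_at, for Rtn4 1452649_at) and without the pair of Vapb and Rtn4. Of the 20 correlations 18 were positive, and 0 passed an adjusted p under 0.05 (exact permutation test, two-sided, Benjamini-Hochberg over 20 pairs). The highest was that of Vapa and Reep5 (r = 0.92, exact permutation p = 0.00424, adjusted p = 0.0848, rho = 0.83, exact permutation p = 0.0154). It was 0.91 for deviations from the diet means, and fell to 0.41 without the 2 mice farthest from the median of Vapa. The high r was thus not seen in the other mice, but leaving out the farthest mice narrows the range and can itself lower r. Vapb correlated with Vapa at r = 0.55 (exact permutation p = 0.149, adjusted p = 0.475, rho = 0.67, exact permutation p = 0.0831), and at 0.57 without the 2 farthest mice. With the probe sets of each gene averaged, 1 pair passed, Vapa and Rtn3 (r = 0.88, exact permutation, adjusted p = 0.0427). Without the 2 farthest mice, 15 of the 20 correlations were positive. How often other gene pairs correlate positively on these arrays was not counted, so nothing is read from the number of positive ones.

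Probe sets of the same gene were compared in the same way. Of 20 pairs of probe sets within a gene, 0 passed an adjusted p under 0.05 by the same exact permutation test. The closest pairs were Reep5 1419398_a_at with 1438001_x_at (r = 0.84, exact permutation p = 0.0228, adjusted p = 0.284, rho = 0.55, exact permutation p = 0.171) and Vapb 1436079_s_at with 1458501_at (r = 0.77, exact permutation p = 0.0284, adjusted p = 0.284, rho = 0.64, exact permutation p = 0.0962). Without the 2 farthest mice, and so over a narrower range, r was -0.28 for the Reep5 pair and 0.51 for the Vapb pair. The high r of the Reep5 pair was thus not seen in the other mice. For Rtn4, the called 1421116_a_at correlated with 1452649_at at r = 0.64 (exact permutation p = 0.0843, adjusted p = 0.337, rho = 0.62, exact permutation p = 0.115), and at 0.47 without the 2 farthest mice. For Vapb, 1423152_at correlated with the others at 0.45 (exact permutation p = 0.264, adjusted p = 0.666, rho = 0.57, exact permutation p = 0.151) and -0.11 (exact permutation p = 0.791, adjusted p = 0.844, rho = 0.07, exact permutation p = 0.882), and without the 2 farthest mice at -0.15 and -0.47.

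Among 12102 genes with a probe set above the median level, those most like Vapb 1423152_at over the 8 mice were Hps4 (r = 0.97), a subunit of a complex for lysosome-related organelles, Cbfa2t2 (r = 0.97), a transcriptional corepressor, and Cry2 (r = 0.96), a repressor of the circadian clock. Those most like Rtn4 1421116_a_at were Rmdn3 (r = 0.94), Timm22 (r = 0.94), a subunit of a mitochondrial import channel, and Serpinb6a (r = 0.93), a protease inhibitor. These values are the highest of a long search, share the same arrays and the diet difference, and are given as a description. None of these 6 genes was called by the rank product, and their differences were 0.06 to 0.24.

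The arrays were alike, with medians of 7.09 to 7.16 and correlations of 0.991 to 0.996. Hepatocyte markers (7 measured) averaged 13.76 to 13.84 in PD mice and 13.76 to 13.86 in CD mice, and 0 were called. Of 7 stellate cell and fibroblast markers 5 were higher in PD mice and Col3a1, a collagen, was called as upregulated (8.69 ± 0.13 in PD mice and 8.32 ± 0.46 in CD mice, SD, n = 4 each), and the list averaged 8.23 to 8.31 in PD mice and 7.97 to 8.32 in CD mice. All 4 measured erythroid markers were lower in PD mice (8.18 to 8.42 in PD and 8.42 to 8.49 in CD mice, list averages), as were 4 of 5 neutrophil markers (7.52 to 7.60 in PD and 7.60 to 7.68 in CD mice). Lrat of the stellate list (difference 0.28), S100a9 of the neutrophil list (-0.27) and Epb42 of the erythroid list (-0.25) had an unadjusted limma p under 0.05 and were not called. These markers and Col3a1 are named after their values were seen. The part of these in the values of Vapb and Rtn4 was not tested. In whole liver, more cells of a type and more RNA per cell cannot be told apart.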

How the data were processed

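GeneChip mouse arrays (Affymetrix) were hybridised with liver RNA of 4 PD and 4 CD mice. The authors quantified the arrays with a model-based expression index in R (version 2.7.2 per the submitters' processing notes) and deposited log2 values, which were used as deposited. How the arrays were normalized against each other is not given in the sources here. No counts exist for arrays, and the number of mice limits the precision.

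After 64 controls were left out, 45037 probe sets were tested, of which 34945 carried 1 gene symbol, 932 several and 9160 none. The rank product (Python 3.11.15, numpy 2.4.6, pandas 2.3.3, scipy 1.17.1) used 16 PD/CD pairs and 1000 permutations of the values within each array, with an FDR under 0.1. Differences, standard errors and intervals came from limma 3.58.1 in R 4.3.3, with Benjamini-Hochberg adjustment over all probe sets. Scripts were tested on simulated data.

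The genes and lists were chosen with earlier results of these data known. Named were every gene of the set with all its probe sets, from the 3 lists around them the genes called, with an unadjusted p under 0.05 or with the lowest p, and the 3 genes most like each called probe set. Alternatives were an FDR of 0.05, a replicate block, quantile normalization, median centring, a filter on dim probe sets, 16 added before the log2, removal of _x_at and _s_at probe sets, 100 permutations, permutation of ranks within pairs, other limma settings, the methods' t-test, gene means and leaving out each mouse.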

Additional observations from a re-analysis of the deposited data

Results flagged for a closer look

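In Osbp 1460350_at, CD mouse 3 stood apart from its group, with a log2 value of 9.61 against 9.41 to 9.43 in the other CD mice. The gap was 0.862 of the range of the group. It was the only 1 of 36 groups of 4 mice to pass Dixon's limit, which chance passes in about 5% of groups. Osbp was not called with or without this mouse.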

How the results depend on the processing

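Of the 18 probe sets, 2 were called by the rank product with all mice, and 1 to 2 when each mouse was left out. Averaging the probe sets of each gene, which was added after seeing the data, gave 0. Permuting ranks within each pair called 3, with Reep5 1438001_x_at added, but then 3637 probe sets were upregulated and 3776 downregulated in all, against 98 and 118. Leaving out dim probe sets gave 72 and 68 in all. Without 1 mouse the totals moved most for upregulated probe sets without PD mouse 2 (38), 3 (40) or 4 (27) and CD mouse 3 (190), and for downregulated ones without PD mouse 1 (209) and CD mouse 1 (16), 2 (41), 3 (34) or 4 (68). Of 231 differences and list medians under the alternatives, 225 moved by less than 1 SD between mice, 4 lost the call of Rtn4, and the median of the ER shaping list moved to 0.00 without PD mouse 1 or 2. Both called probe sets stayed higher in PD mice throughout. When a mouse was left out this could not turn out otherwise, as the groups do not overlap on either. Among the 225, 26 values near 0 turned sign, on 7 probe sets not called and 2 list medians, such as Reep5 1419398_a_at (-0.05 without CD mouse 2), Rtn4 1439650_at (-0.03 without CD mouse 3) and Vapb 1458501_at (0.03 without PD mouse 1). With gene means, 1 of the 20 correlations between genes passed, against 0.

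With the replicate block, the 4 pairs of the same number, the rank product called the same 2 probe sets (109 upregulated and 103 downregulated in all), and limma 0. The labels do not say whether the numbers pair the mice. Deviations of same-numbered arrays correlated at -0.06 to -0.00 and none was most like its own number. This shows no shared pattern in expression but cannot exclude a pairing in handling. Limma passed 0 of the 18 under all alternatives run. The methods' t-test gave an unadjusted p under 0.05 for 2 of the 18 and for 1711 of all 45037 probe sets. After Benjamini-Hochberg adjustment it passed 0 of the 18 and 0 of all probe sets.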
